A study of Mus musculus with 18 samples.

Results

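The 9 genes described here encode the main protein folding and protein degrading machines of the mitochondrion: Hspd1, Hspe1, Hspa9, Dnaja3 and Trap1 among the chaperones, and Lonp1, Clpp, Clpx and Yme1l1 among the ATP-dependent proteases. They were picked by name, with earlier results of these data known, from 17208 genes in the deposited tables, and all 9 were among the 7794 genes with at least 1 read in all 18 libraries that entered the tests. The cells were MIN6, a mouse insulinoma line that makes insulin and serves as a model of the pancreatic β-cell. Control cells received the solvent DMSO for 18 h, CPA1 cells received 200 µM cyclopiazonic acid (CPA, an inhibitor of the calcium pump of the endoplasmic reticulum) for 1 h and CPA18 cells received the same dose for 18 h. Each condition was sequenced as poly(A)-selected RNA (mRNA-seq) and as ribosome-protected fragments (Ribo-seq) in 3 independent experiments, and no group carried a genetic change. MIN6 is a tumor line, so these libraries are a model of dividing β-cell-like cells and not of islet tissue.

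Most mitochondrial proteins are made in the cytosol and enter the matrix unfolded. The Hsp70 of the matrix (Hspa9) with its J-protein partner Dnaja3 binds the arriving chains, the chaperonin ring of Hspd1 (Hsp60) with its lid Hspe1 (Hsp10) folds them, and the mitochondrial Hsp90, Trap1, acts on later folding steps. Proteins that fail to fold are degraded in the matrix by Lonp1 and by ClpXP, in which Clpx unfolds and Clpp cuts, while Yme1l1 degrades proteins on the outer face of the inner membrane. A rise of these genes when mitochondrial proteins misfold is called the mitochondrial unfolded protein response, and in mammalian cells the factors Atf4, Atf5 and Ddit3 (CHOP) have been tied to it.

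After 18 h of CPA, Lonp1, Hspa9 and Dnaja3 were higher than in control in both assays, by 5.59, 3.84 and 3.24-fold in mRNA-seq and by 4.99, 2.43 and 2.70-fold in Ribo-seq. Clpp and Hspe1 were higher by smaller folds, Hspd1 passed the test in Ribo-seq and not in mRNA-seq, and Trap1 in mRNA-seq and not in Ribo-seq. Yme1l1 was lower in mRNA-seq, and Clpx passed in neither assay. None of the 9 genes passed after 1 h, when 0.719% of all genes were called in mRNA-seq and 6.51% in Ribo-seq. Folds come from edgeR's quasi-likelihood test on counts with the experiment as a block. Their errors were derived from the log2 change and the F statistic of that test. The Benjamini-Hochberg adjustment of p was made across the 7794 tested genes, and a gene was called, or passed, at an adjusted p under 0.05. In bulk libraries such as these, fewer cells of a kind and less RNA per cell cannot be told apart.

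The libraries held 520960 to 4755030 reads in mRNA-seq and 168129 to 1083297 in Ribo-seq. In Ribo-seq every CPA18 library (168129 to 553842 reads) was shallower than every control library (821147 to 1083297). Lars2 alone took 4.75% to 54.8% of the mRNA-seq reads and 0.083% to 3.51% of the Ribo-seq reads, which lowers the number of reads left for other genes. All 12 β-cell markers were read in all 18 libraries, and of 19 markers of other pancreatic, stromal, endothelial and blood cells only the α-cell gene Gcg was. Of these 19 markers, 3 had no row in the tables used here, and the rest summed to 22.4 to 140.0 RPKM in mRNA-seq against 44300 to 465000 RPKM for the β-cell markers. The β-cell markers summed to 44300 to 136000 RPKM in CPA18 mRNA-seq and to 159000 to 465000 RPKM in control. In each assay 11 of 12 were called lower in CPA18, against 7.69% of all genes in mRNA-seq and 6.35% in Ribo-seq. Without the replicate block 2 were called lower in mRNA-seq and 11 in Ribo-seq. That fit called 1.98% of all genes in mRNA-seq and 25.1% in Ribo-seq, in any direction. For the control of experiment 2, the titles and descriptions of the libraries name opposite assays. They were placed by their titles, and the Lars2 share was 7.19% in the one titled mRNA-seq and 0.083% in the one titled Ribo-seq.

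The total count was used as library size, and under this scaling the median gene moved by 0.36 on the log2 scale in mRNA-seq and by 0.39 in Ribo-seq between control and CPA18. Changes are therefore also given relative to the median gene. When every library was centred on the median gene, a scaling added after the data were seen, 5 members rose and 1 fell in mRNA-seq and 4 rose and 1 fell in Ribo-seq. Under this centring 15.5% of all genes were higher and 15.8% lower in CPA18 mRNA-seq, and 10.1% and 13.0% in Ribo-seq, against 25.9% and 7.69%, and 24.6% and 6.35%, with the total count.

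Sequences around the gene starts are shown for members that hold a match to a stress-related motif. Windows from 250 bases before to 50 bases after a start were taken from RefSeq on GRCm38.p6 for 8 of the 9 genes, 9 windows in all. Of 5 motifs searched on both strands, those found were the heat shock motifs TTCNNGAA (in 8.52% of 32851 windows) and GAANNTTC (7.86%), and TGACGTNA, the cyclic AMP response element (2.93%). In this order they were in 3, 2 and 2 of the 9 member windows. The Hspd1 and Hspe1 windows with matches overlap and hold the same heat shock sites, so these sites were counted for both genes. Hspa9, Dnaja3, Clpx and Yme1l1 had no match, and the gene without a window is among them. Each sequence below runs 5′ to 3′ in the direction of its gene, with the match in capitals.
Hspe1: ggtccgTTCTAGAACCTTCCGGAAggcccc
Lonp1: gcgagcagagaTGACGTAAgtgcggtgcgc
Trap1: gtcgcgcgccaTGACGTCActgagccgccc
Clpp: ccgggtgttgtagTTCCGGAAgccaagccg
The Hspe1 stretch lies on the plus strand at chr1:55088053-55088082. Its 18 capitals, which begin 89 bases before the Hspe1 start, hold 2 matches to TTCNNGAA that overlap 1 match to GAANNTTC between them, and they also lie before the start of 1 Hspd1 transcript and in the first exon of the other, which starts further out. The Lonp1 stretch (chr17:56626892-56626921, minus strand) carries its match 7 bases before the start, with the last base of the match in the first exon. The Trap1 stretch (chr16:4077839-4077868, minus strand) has its match 47 bases before the first base of the Trap1 mRNA (4077810), outside annotated exons. The interval of the whole gene reaches to 4077840 through a predicted transcript, from whose start the match lies less far. The Clpp stretch (chr17:56990284-56990313, plus strand) has its match in the first exon. The core of the amino acid response element TGATGNAA, to which Atf4 dimers bind, was in 3.97% of all windows and in none of the 9, and the endoplasmic reticulum stress element ERSE was in 0.119% and in none of the 9. These matches describe letters in a window and not binding.

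The chaperonin genes Hspd1 and Hspe1 lie head to head on chromosome 1 (all coordinates are those of GRCm38.p6). Hspd1 (gene ID 15510, chr1:55077833-55088243, minus strand) encodes the subunits of the folding ring, and Hspe1 (15528, chr1:55088148-55091317, plus strand) the lid that closes it. That first exon of Hspd1 shares 96 bases with the first exon of Hspe1 on the other strand, and the sources used here do not say whether strand was used in counting, so reads from these bases cannot be told apart.

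Hspd1 was read at 48.2, 36.6 and 23.04 RPKM in control, 29.6, 23.1 and 18.4 in CPA1 and 45.5, 44.4 and 32.1 in CPA18 in mRNA-seq, in the order of experiments 1, 2 and 3. RPKM are reads scaled to transcript length and to the total of the library, as deposited and summed over the transcripts of a gene. The CPA18 values overlapped those of control, and the CPA1 values were the lowest within each experiment. In Ribo-seq it was read at 169.7, 122 and 144 RPKM in control, 141, 144 and 81.1 in CPA1 and 279, 288 and 176 in CPA18, with every CPA18 library above every control library. The change between control and CPA18 was 0.24 ± 0.28 (log2, SE) in mRNA-seq (adjusted p = 0.54) and 0.73 ± 0.17 in Ribo-seq (adjusted p = 0.000347), by edgeR with Benjamini-Hochberg adjustment as in all following tests. Relative to the median gene, the Ribo-seq change was 0.34, and with libraries centred on the median gene it did not pass (adjusted p = 0.178). Between CPA1 and CPA18, Hspd1 rose by 0.80 ± 0.28 in mRNA-seq (adjusted p = 0.0172; 0.322 without the block) and by 1.02 ± 0.18 in Ribo-seq (adjusted p = 7.3e-07), the latter also with centred libraries (adjusted p = 0.0014).

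Hspe1 stood at 129, 224 and 166 RPKM in control, 71.96, 150.1 and 237 in CPA1 and 158, 492 and 381 in CPA18 in mRNA-seq. In CPA18 the value exceeded the control of the same experiment in 3 of 3 experiments, although that of experiment 1 was below the controls of experiments 2 and 3. In Ribo-seq it stood at 104, 119 and 130.0 RPKM in control, 112, 87.3 and 102 in CPA1 and 212, 169 and 192 in CPA18, and every CPA18 library was above every other library. The gene rose by 0.91 ± 0.26 in mRNA-seq (adjusted p = 0.00435; 0.315 without the block) and by 0.68 ± 0.24 in Ribo-seq (adjusted p = 0.0205). Relative to the median gene the changes were 0.55 and 0.29. With centred libraries the mRNA-seq call held (adjusted p = 0.0192) and the Ribo-seq call was lost (adjusted p = 0.426). The Ribo-seq counts of Hspe1 were small, 27 to 84 reads a library in CPA18.

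The ratio of Hspd1 to Hspe1 differed between the assays more than between the conditions. In mRNA-seq, Hspd1 RPKM over Hspe1 RPKM was 0.374, 0.163 and 0.139 in control and 0.288, 0.0903 and 0.0843 in CPA18. In Ribo-seq the ratio was 1.64, 1.03 and 1.10 in control and 1.32, 1.71 and 0.915 in CPA18. Every Ribo-seq ratio was thus above every mRNA-seq ratio. Within experiments the mRNA-seq ratio was lower in CPA18 than in control in 3 of 3, although the ranges overlapped, and the Ribo-seq ratio was lower in 2 of 3. These ratios were not tested. Of the 28-base words in their GENCODE transcripts, 55.1% of those of Hspd1 and 61.8% of those of Hspe1 also occur in transcripts of other genes, among them the pseudogene copies Hspd1-ps3 and Hspe1-ps3. Whether such copies took reads was not tested.

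**Figure D1:**
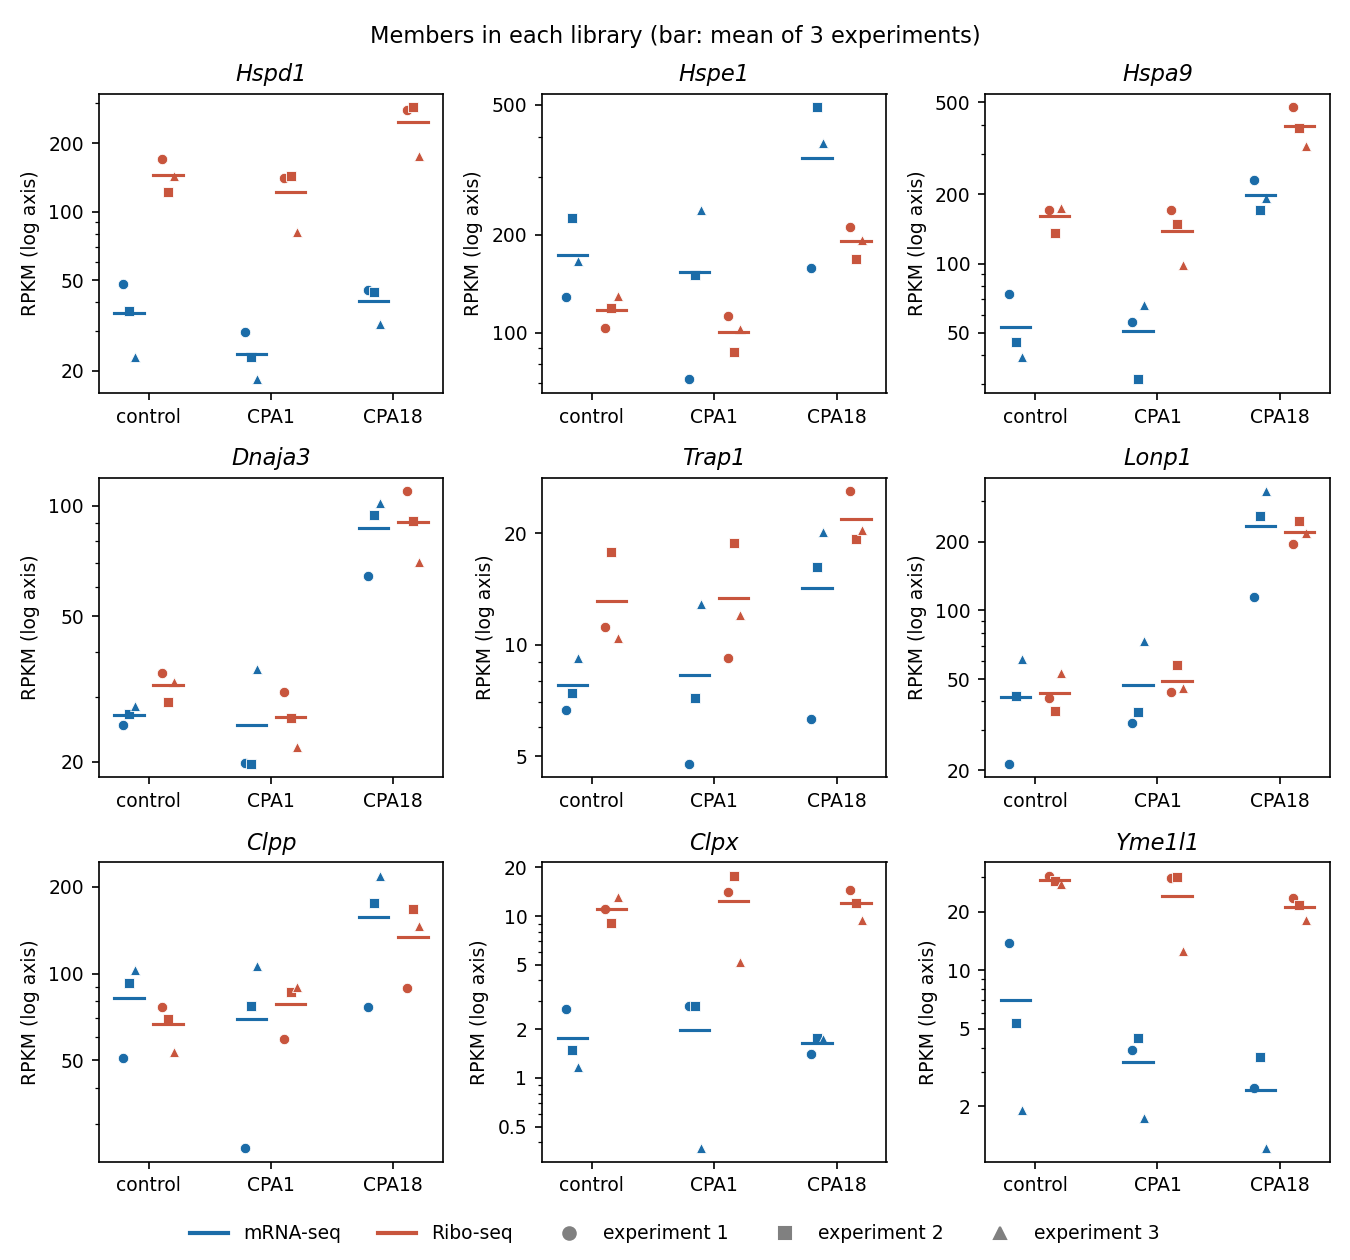
RPKM of the 9 genes in each of the 18 libraries, in control, CPA1 and CPA18, on log axes that differ between panels; blue points are mRNA-seq and red points Ribo-seq, the marker gives the experiment and the bar the mean of 3 experiments. Lonp1, Hspa9 and Dnaja3 stand higher in all CPA18 libraries than in all control libraries of the same assay, while Clpx stays below 3 RPKM in mRNA-seq.

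Hspa9 (15526, chr18:34937414-34954351, minus strand) encodes the matrix Hsp70 that pulls imported chains inward and holds them unfolded. It stood at 73.8, 45.8 and 39.4 RPKM in control, 55.7, 31.5 and 66.1 in CPA1 and 232, 172 and 193 in CPA18 in mRNA-seq and at 171, 135 and 175 RPKM in control, 170.3, 148 and 98.4 in CPA1 and 477, 388 and 324 in CPA18 in Ribo-seq. In both assays the lowest CPA18 library lay above the highest control library. The change was 1.94 ± 0.25 in mRNA-seq (adjusted p = 5.69e-10; 0.0529 without the block) and 1.28 ± 0.16 in Ribo-seq (adjusted p = 1.4e-12). Relative to the median gene the changes were 1.58 and 0.89, and 158 genes in mRNA-seq and 899 in Ribo-seq had a larger change than Hspa9. The pseudogene Hspa9-ps1 shares 16.3% of the 28-base words of Hspa9.

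Dnaja3 (83945, chr16:4684070-4707695, plus strand), also called Tid1, is the J-protein that stimulates the ATPase of Hspa9. Its mRNA-seq levels were 25.2, 27.01 and 28.4 RPKM in control, 19.9, 19.8 and 35.9 in CPA1 and 64.3, 94.2 and 102 in CPA18. Its Ribo-seq levels were 34.96, 29.2 and 32.95 RPKM in control, 31.02, 26.4 and 21.9 in CPA1 and 109.6, 90.8 and 70.5 in CPA18. Again the CPA18 libraries stood above all others in each assay. The gene rose by 1.69 ± 0.27 in mRNA-seq (adjusted p = 2.97e-07; 0.0696 without the block) and by 1.43 ± 0.23 in Ribo-seq (adjusted p = 1.65e-08). The RPKM of Dnaja3 over that of Hspa9 was 0.205, 0.216 and 0.189 in control Ribo-seq and 0.230, 0.234 and 0.217 in CPA18 Ribo-seq, so the 3 CPA18 ratios lay just above the 3 control ratios. In mRNA-seq this ratio was 0.341, 0.590 and 0.721 in control and 0.278, 0.549 and 0.529 in CPA18, lower in 3 of 3 experiments although the ranges overlapped.

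Trap1 (68015, chr16:4039971-4077840, minus strand) encodes the Hsp90 of mitochondria. It was read at 6.68, 7.41 and 9.22 RPKM in control, 4.78, 7.19 and 12.9 in CPA1 and 6.31, 16.2 and 20.1 in CPA18 in mRNA-seq and at 11.1, 17.8 and 10.4 RPKM in control, 9.23, 18.9 and 12.03 in CPA1 and 25.9, 19.3 and 20.4 in CPA18 in Ribo-seq. The mRNA-seq value of CPA18 in experiment 1 lay below all 3 controls, whereas those of experiments 2 and 3 lay above them, and in Ribo-seq all CPA18 libraries were above all controls. The change was 0.90 ± 0.35 in mRNA-seq (adjusted p = 0.0346; 0.349 without the block) and 0.76 ± 0.36 in Ribo-seq (adjusted p = 0.0911). Relative to the median gene these were 0.54 and 0.37, with -0.25 in Ribo-seq of experiment 2. The mRNA-seq call held in 2 of 15 other settings, the fewest of the 6 rises in that assay, and was lost with centred libraries (adjusted p = 0.116). Trap1 had 9 to 26 Ribo-seq reads a library in CPA18, and 48 bases of its exons overlap exons of Dnase1 on the other strand.

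Lonp1 (74142, chr17:56614297-56626903, minus strand), the main ATP-dependent protease of the matrix, had the largest rise of the 9 genes in both assays. Its mRNA-seq levels were 21.3, 42.4 and 61.5 RPKM in control, 32.2, 35.8 and 73.1 in CPA1 and 115, 259 and 332 in CPA18. Its Ribo-seq levels were 41.4, 36.2 and 53.5 RPKM in control, 44.1, 57.5 and 45.8 in CPA1 and 194, 245 and 219 in CPA18. Every CPA18 library lay above every control and CPA1 library of its assay. The rise was 2.48 ± 0.26 in mRNA-seq (adjusted p = 5.21e-14; 0.0278 without the block) and 2.32 ± 0.19 in Ribo-seq (adjusted p = 1.75e-28). Relative to the median gene it was 2.12 and 1.93. Within experiments 1, 2 and 3 the log2 ratio of CPA18 to control was 2.43, 2.61 and 2.43 in mRNA-seq and 2.23, 2.76 and 2.03 in Ribo-seq. Of the 7794 genes, 60 had a larger change in mRNA-seq and 88 in Ribo-seq. The call held in all 15 other settings in each assay. No 28-base word of Lonp1 occurs in a transcript of another gene.

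Clpp (53895, chr17:56990264-56996371, plus strand) and Clpx (270166, chr9:65294251-65330658, plus strand) encode the peptidase and the unfoldase of the same matrix protease. Clpp stood at 50.9, 92.7 and 103 RPKM in control, 24.8, 77.2 and 106 in CPA1 and 76.7, 176 and 219 in CPA18 in mRNA-seq and at 76.7, 69.5 and 53.5 RPKM in control, 59.1, 86.5 and 89.8 in CPA1 and 88.8, 167 and 147 in CPA18 in Ribo-seq. Its CPA18 value exceeded the control of its own experiment in 3 of 3 experiments in each assay, although in mRNA-seq the ranges overlapped through experiment 1. Clpp rose by 0.90 ± 0.27 in mRNA-seq (adjusted p = 0.00597; 0.366 without the block) and by 1.03 ± 0.24 in Ribo-seq (adjusted p = 0.000248). Relative to the median gene the changes were 0.54 and 0.64. In Ribo-seq of experiment 1 the change was -0.25 relative to the median gene, so Clpp rose less than that gene there.

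Clpx was read at 2.68, 1.48 and 1.16 RPKM in control, 2.77, 2.76 and 0.369 in CPA1 and 1.41, 1.76 and 1.74 in CPA18 in mRNA-seq and at 11.04, 9.02 and 13.2 RPKM in control, 14.1, 17.8 and 5.19 in CPA1 and 14.5, 12.1 and 9.44 in CPA18 in Ribo-seq. The conditions overlapped in both assays. With 2 to 24 reads a library in mRNA-seq and 7 to 41 in Ribo-seq, a change of Clpx was not detectable at this depth unless it was large. The 95% interval of the log2 change between control and CPA18 ran from -1.05 to 1.10 in mRNA-seq and from -0.72 to 0.80 in Ribo-seq. These intervals are approximate, because the error is derived from the change itself and is unsteady when that change is very small. In CPA18 Ribo-seq, Clpx RPKM over Clpp RPKM was 0.164, 0.0722 and 0.0644, against 0.144, 0.130 and 0.247 in control. The 2 ranges overlapped.

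Yme1l1 (27377, chr2:23155442-23199260, plus strand), the protease of the inner membrane that faces the intermembrane space, moved the other way from Lonp1 and Clpp. Its mRNA-seq levels were 13.9, 5.32 and 1.91 RPKM in control, 3.87, 4.48 and 1.73 in CPA1 and 2.47, 3.59 and 1.22 in CPA18. Its Ribo-seq levels were 30.6, 28.9 and 27.9 RPKM in control, 29.9, 30.1 and 12.6 in CPA1 and 23.4, 21.5 and 18.2 in CPA18. In mRNA-seq the control values were spread widely and CPA18 overlapped them, but the CPA18 value was below the control of its experiment in 3 of 3 experiments. In Ribo-seq all CPA18 libraries lay below all control libraries. The gene fell by 1.21 ± 0.38 on the log2 scale in mRNA-seq (adjusted p = 0.00874; 0.234 without the block), and in Ribo-seq the change of -0.47 ± 0.25 did not pass (adjusted p = 0.141). The mRNA-seq call was lost without experiment 1 (adjusted p = 0.254), whose control held the highest value. With centred libraries Yme1l1 fell in both assays, by 1.49 in mRNA-seq (adjusted p = 0.00302) and by 0.87 in Ribo-seq (adjusted p = 0.00245).

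**Figure D2:**
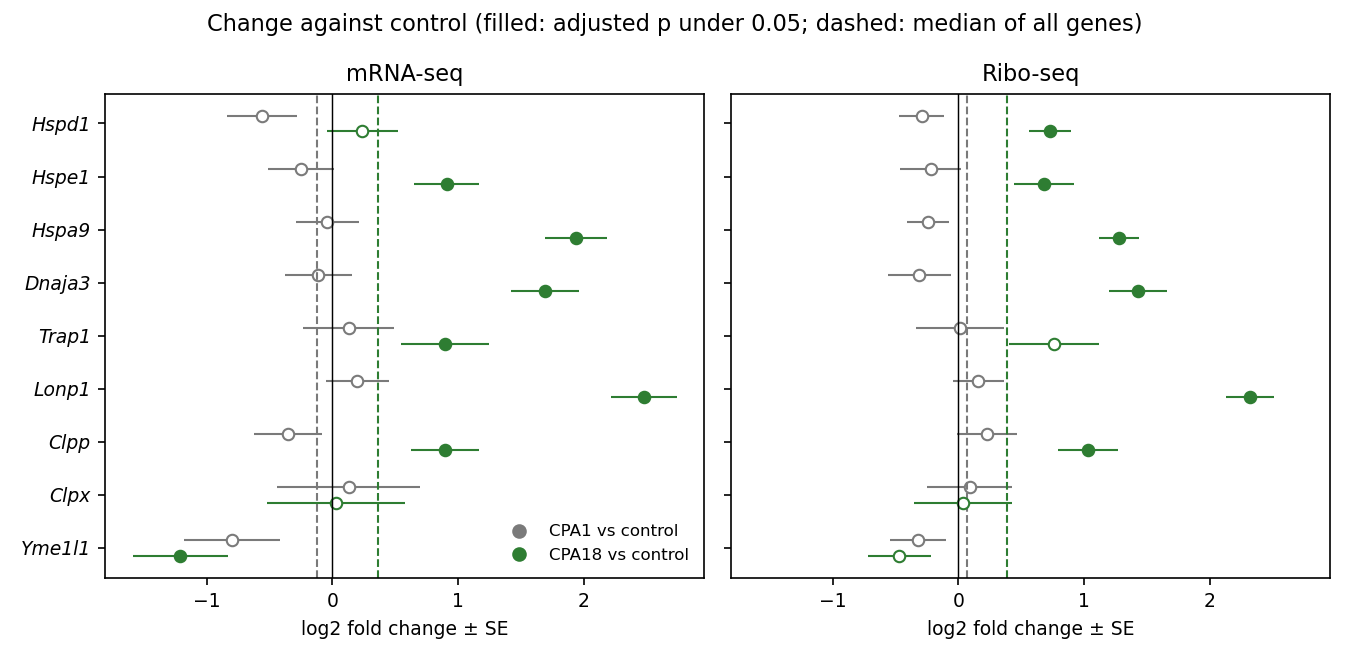
Log2 fold change with its SE for the 9 genes, CPA1 against control in grey and CPA18 against control in green, in mRNA-seq (left) and Ribo-seq (right); filled points passed an adjusted p of 0.05 and dashed lines give the median of the 7794 genes. After 18 h Lonp1 stands at 2.48 and 2.32, and after 1 h no point is filled.

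In all, 6 members were higher and 1 lower in CPA18 than in control in mRNA-seq, where 33.6% of the 7794 genes were called (25.9% as higher and 7.69% as lower). In Ribo-seq 6 were higher and none lower, against 30.9% of all genes called (24.6% as higher and 6.35% as lower). In mRNA-seq the median change of the 9 members was 0.90 (all genes 0.36), and in Ribo-seq 0.76 (all genes 0.39). Without the replicate block only Lonp1 was called in mRNA-seq (1.98% of all genes), while in Ribo-seq 6 members were higher as with it (25.1%). With the assays of the experiment 2 controls exchanged, Lonp1 and Dnaja3 were called in Ribo-seq (2.45% of all genes), and with both of these controls left out 5 members were (21.8%).

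**Figure D3:**
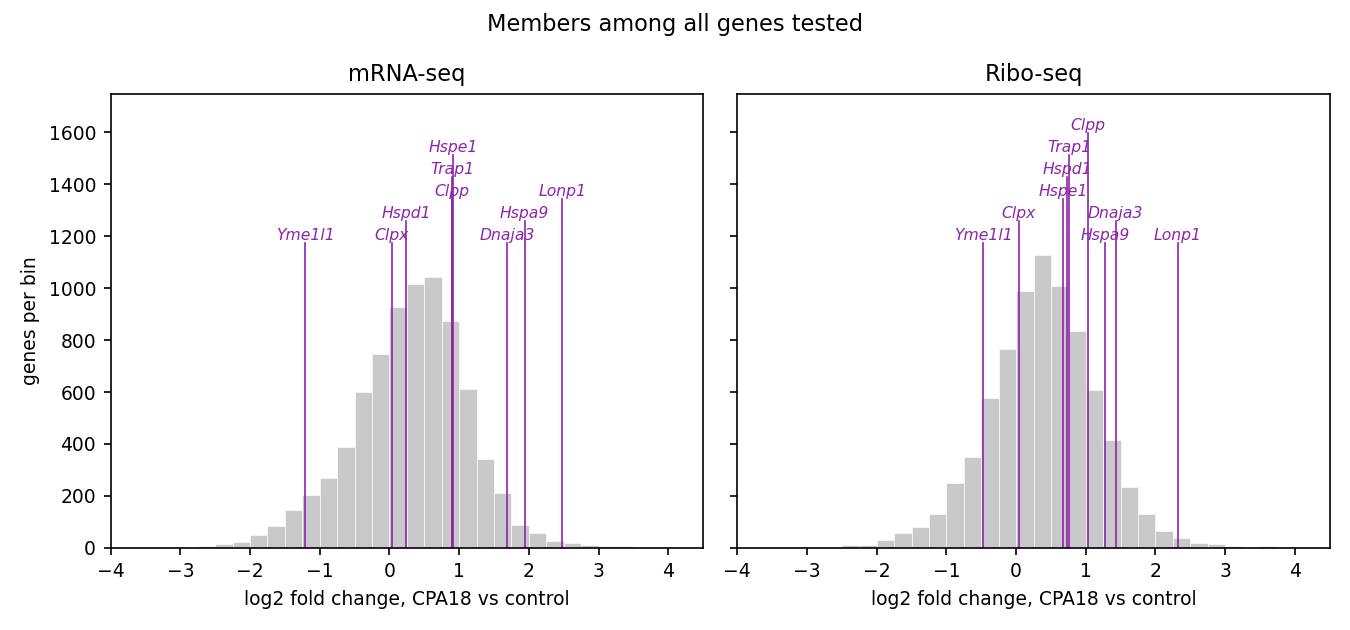
Histogram of the log2 fold change between control and CPA18 over the 7794 genes in mRNA-seq (left) and Ribo-seq (right), in bins of 0.25, with a line for each of the 9 genes. Lonp1 lies in the upper tail of both, with 60 genes above it in mRNA-seq and 88 in Ribo-seq, and Yme1l1 lies to the left of the peak.

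After 1 h of CPA, the members were not called in mRNA-seq (0.719% of all genes called) or in Ribo-seq (6.51%). At an unadjusted p under 0.05, which 6.24% of all genes reached in mRNA-seq and 18.2% in Ribo-seq, Hspd1 (-0.56 ± 0.28, adjusted p = 0.793) and Yme1l1 (-0.80 ± 0.38, adjusted p = 0.707) were the 2 members that reached it in mRNA-seq, both with lower values, and none did in Ribo-seq. The limma fits also called none. DESeq2 called none either, but in mRNA-seq it gave no adjusted p for Clpx, Trap1 and Yme1l1, so it did not decide on these. In Ribo-seq the 95% interval of the log2 change at 1 h ran from -0.23 to 0.55 for Lonp1, from -0.56 to 0.09 for Hspa9 and from -0.79 to 0.17 for Dnaja3, so rises of the size seen after 18 h lay outside these intervals. Between CPA1 and CPA18, 6 members rose in mRNA-seq (37.5% of all genes called, 31.9% as higher) and the same number in Ribo-seq (22.5%, 17% as higher), namely Hspd1, Hspe1, Hspa9, Dnaja3, Lonp1 and Clpp in each. The median gene itself rose by 0.48 in mRNA-seq and by 0.31 in Ribo-seq (log2). With centred libraries Hspd1 did not pass in mRNA-seq (edgeR, adjusted p = 0.156). In Ribo-seq Hspe1 (adjusted p = 0.0885) and Clpp (adjusted p = 0.161) did not pass either. Without the block the mRNA-seq calls were those of Hspa9 and Lonp1 alone (1.77% of all genes called). Lonp1 rose by 2.28 ± 0.25 in mRNA-seq (adjusted p = 8.09e-13) and by 2.16 ± 0.20 in Ribo-seq (adjusted p = 4.57e-23) over this interval. This comparison and that of CPA18 with control share the CPA18 libraries.

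Ribosome occupancy, the Ribo-seq RPKM of a gene over its mRNA-seq RPKM in the same experiment, was not called as changed for any member in any comparison. The test was the interaction of assay and treatment in edgeR over the 18 libraries, which called 0.0898% of all genes between control and CPA1, 0.462% between control and CPA18 and 0.077% between CPA1 and CPA18. The largest difference toward lower occupancy was that of Hspa9, which stood at 2.31, 2.96 and 4.43 in control, 3.06, 4.70 and 1.49 in CPA1 and 2.06, 2.26 and 1.68 in CPA18. All 3 CPA18 ratios of Hspa9 were below all 3 control ratios, and the log2 change of -0.66 ± 0.31 did not pass after adjustment (edgeR, adjusted p = 0.508). This was the only member at an unadjusted p under 0.05 between control and CPA18 by edgeR, where 9.01% of all genes were. DESeq2 and limma called none as well.

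Lonp1 ribosome occupancy was 1.94, 0.855 and 0.869 in control and 1.70, 0.949 and 0.660 in CPA18, and the 95% interval of its log2 change ran from -0.78 to 0.46. Dnaja3 ribosome occupancy was 1.39, 1.08 and 1.16 in control and 1.71, 0.964 and 0.690 in CPA18, with an interval from -0.93 to 0.41. For both genes the conditions overlapped. These intervals are wide next to the rises in RNA and footprints themselves, so equal occupancy was not shown. Hspd1 ribosome occupancy was 3.52, 3.34 and 6.23 in control and 6.12, 6.49 and 5.48 in CPA18 (log2 change 0.49 ± 0.32, edgeR adjusted p = 0.672), also with overlap. The intervals of Hspe1, Clpp, Trap1, Clpx and Yme1l1 all held 0, and that of Clpx was the widest, -1.36 to 1.41. The Clpx interval is approximate, since an error derived from so small a change (0.03, log2) is unsteady.

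**Figure D4:**
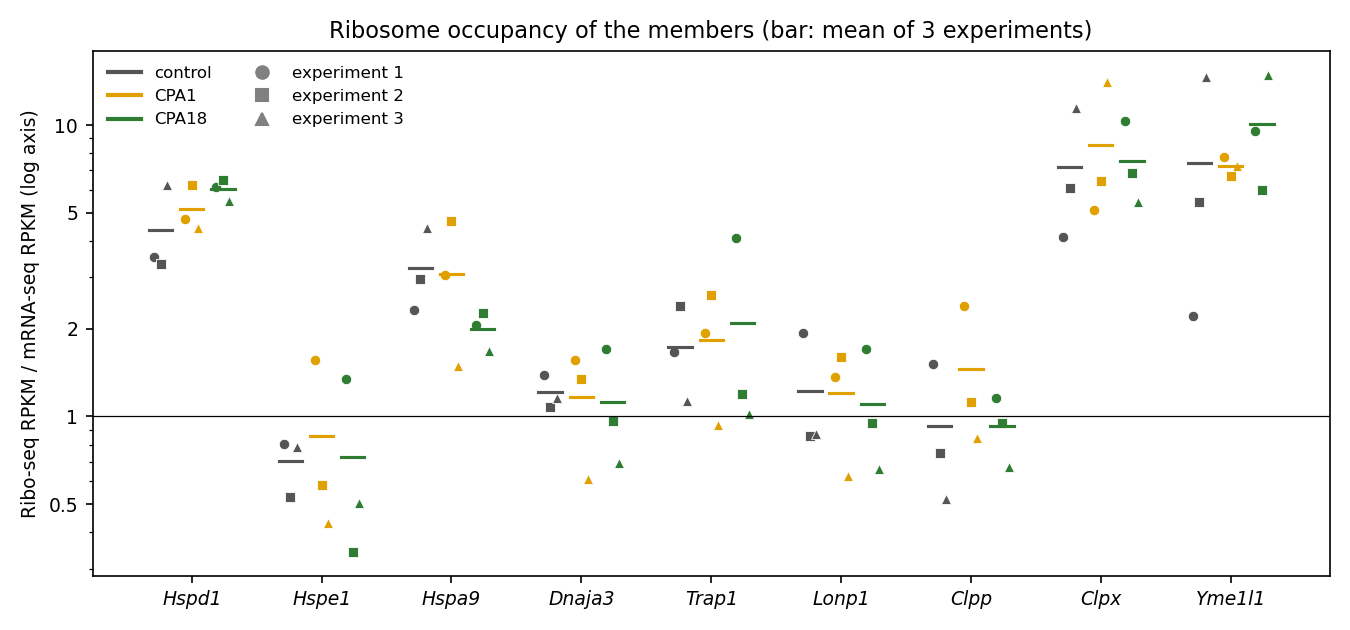
Ribosome occupancy (Ribo-seq RPKM over mRNA-seq RPKM, log axis) of the 9 genes in control (grey), CPA1 (yellow) and CPA18 (green); the marker gives the experiment and the bar the mean of 3. The spread between experiments is as wide as the distance between conditions for most genes, and the 3 CPA18 points of Hspa9, at 1.68 to 2.26, lie below its control points, at 2.31 to 4.43.

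The 9 genes differed more from each other than with treatment. Control mRNA-seq means ran from 173 ± 48.1 RPKM for Hspe1 (SD, n = 3) over 82.3 ± 27.7 for Clpp, 53.01 ± 18.3 for Hspa9, 41.7 ± 20.1 for Lonp1, 35.96 ± 12.6 for Hspd1 and 26.9 ± 1.62 for Dnaja3 down to 7.77 ± 1.31 for Trap1, 7.03 ± 6.15 for Yme1l1 and 1.77 ± 0.801 for Clpx. Neighbours in this order overlapped over the 3 experiments except Hspe1 and Clpp, and Dnaja3 and Trap1. In control Ribo-seq the order was Hspa9 (160.2 ± 21.6 RPKM), Hspd1 (145 ± 23.8), Hspe1 (118 ± 13.3), Clpp (66.6 ± 11.9), Lonp1 (43.7 ± 8.84), Dnaja3 (32.4 ± 2.92), Yme1l1 (29.1 ± 1.40), Trap1 (13.1 ± 4.06) and Clpx (11.1 ± 2.09). Here Hspe1 and Clpp, Clpp and Lonp1, Lonp1 and Dnaja3, and Yme1l1 and Trap1 did not overlap. In CPA18 Lonp1 moved from the fourth to the second place in mRNA-seq, at 235 ± 110.0 RPKM, and from the fifth to the third in Ribo-seq, at 219.5 ± 25.5 RPKM, overlapping the genes on either side of it.

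Further genes of the same machinery were counted in lists. A list of 10 genes held partners of the matrix chaperones and other mitochondrial chaperone factors such as Clpb, and 6 were tested. In CPA18 mRNA-seq 5 rose (Clpb, Dnajc15, Dnajc19, Dnlz and Pam16) and none fell, with a median change of 0.89. This is 83.3% of those tested, where 25.9% of all genes rose. Clpb, a disaggregase, rose by 1.81 ± 0.36 in mRNA-seq (adjusted p = 3.57e-05) and by 1.24 ± 0.34 in Ribo-seq (adjusted p = 0.00192). In Ribo-seq 4 of the 6 rose (66.7%, all genes 24.6%), among them the import motor subunit Pam16 by 1.29 ± 0.29 (adjusted p = 0.000104) and Dnlz, which keeps Hspa9 soluble, by 1.48 ± 0.41 (adjusted p = 0.00242). The J-proteins of the import motor, Dnajc15 and Dnajc19, rose by 1.06 ± 0.32 (adjusted p = 0.00648) and 0.97 ± 0.31 (adjusted p = 0.00952) in mRNA-seq. With centred libraries 2 of the 6 rose in each assay, where 15.5% and 10.1% of all genes were higher. Without the block none rose in mRNA-seq (1.98% of all genes called) and 4 in Ribo-seq (25.1%). Grpel1 and Grpel2, which exchange the nucleotide of Hspa9, were not analysed here.

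Of 18 other proteases and scaffolds, 14 were tested, and 4 rose in CPA18 mRNA-seq (median 0.59) and 4 in Ribo-seq (median 0.54), with none lower in either. The share that rose, 28.6% in each assay, was close to that of all genes, 25.9% in mRNA-seq and 24.6% in Ribo-seq. The rhomboid protease gene Parl rose in both assays, by 1.18 ± 0.32 in mRNA-seq (adjusted p = 0.00239) and by 1.42 ± 0.38 in Ribo-seq (adjusted p = 0.00162). So did Phb2, a subunit of the prohibitin ring around the inner membrane proteases, by 0.73 ± 0.25 (adjusted p = 0.0182) and 0.79 ± 0.21 (adjusted p = 0.00132). Htra2, a serine protease of the intermembrane space, rose in mRNA-seq by 1.25 ± 0.34 (adjusted p = 0.00248), and Immp1l, a subunit of the inner membrane peptidase, in Ribo-seq by 1.11 ± 0.34 (adjusted p = 0.00707). The remaining calls were Stoml2 in mRNA-seq and Phb in Ribo-seq. With centred libraries 2 rose in mRNA-seq (15.5% of all genes higher), and 1 rose and 1 fell in Ribo-seq (10.1% higher and 13.0% lower). Without the block none was called in mRNA-seq (1.98% of all genes called) and 3 rose in Ribo-seq (25.1%).

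Of 23 genes of protein import, 21 were tested, and 10 rose and none fell in each assay, with medians of 0.60 in mRNA-seq and 0.69 in Ribo-seq. Timm8a1 and Timm10b, small chaperones of the intermembrane space, rose by 2.22 ± 0.35 (adjusted p = 2.23e-07) and 1.24 ± 0.27 (adjusted p = 0.000122) in mRNA-seq. In Ribo-seq they rose by 2.29 ± 0.45 (adjusted p = 8.37e-06) and 1.51 ± 0.26 (adjusted p = 3.85e-07). Of the carrier translocase, Timm22 rose by 1.96 ± 0.33 in Ribo-seq (adjusted p = 1.81e-07) and Timm29 by 1.13 ± 0.28 in mRNA-seq (adjusted p = 0.000852). With centred libraries 8 import genes rose in mRNA-seq and 6 in Ribo-seq (15.5% and 10.1% of all genes higher). Without the block 1 and 9 rose (1.98% and 25.1% of all genes called). No gene of these 3 lists passed in either assay after 1 h, and none passed for ribosome occupancy in any comparison. The 10 import genes are 47.6% of those tested, against 25.9% of all genes as higher in mRNA-seq and 24.6% in Ribo-seq.

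Of 5 transcription factors tied to this response, some passed the test already after 1 h. Atf4 was read at 64.6, 73.1 and 92.2 RPKM in control, 398, 532 and 663 in CPA1 and 966, 935 and 1238 in CPA18 in Ribo-seq, with no overlap between any of the conditions. It rose after 1 h by 2.76 ± 0.18 in Ribo-seq (adjusted p = 3.85e-43) and by 1.46 ± 0.26 in mRNA-seq (adjusted p = 9.45e-05; 1.0 without the block). The mRNA-seq fit without the block called none of the 7794 genes after 1 h. Atf5 stood at 20.8, 9.82 and 31.1 RPKM in control, 56.1, 63.9 and 101 in CPA1 and 173, 199 and 232 in CPA18 in Ribo-seq and at 50.4, 96.8 and 125 RPKM in control, 49.4, 59.6 and 120.2 in CPA1 and 104, 314 and 376 in CPA18 in mRNA-seq. Its footprints were thus higher at 1 h in 3 of 3 experiments and its mRNA in none, and its ribosome occupancy rose by 2.08 ± 0.36 after 1 h (edgeR, adjusted p = 0.000738; 1.0 without the block) and by 1.85 ± 0.36 after 18 h (adjusted p = 0.00124; 1.0 without the block).

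Ddit3 was read at 1.37, 2.42 and 8.49 RPKM in control, 55.5, 61.9 and 113 in CPA1 and 233, 266 and 428 in CPA18 in Ribo-seq, and its footprints rose by 4.09 ± 0.40 after 1 h (adjusted p = 2.05e-20). Cebpb, a factor that pairs with Ddit3, rose after 18 h by 3.28 ± 0.28 in mRNA-seq (adjusted p = 3.43e-18) and by 3.55 ± 0.23 in Ribo-seq (adjusted p = 1.04e-41). Counted over the list, 2 factors rose in mRNA-seq after 1 h, where 0.719% of all genes were called, and 4 in Ribo-seq, where 6.51% were. After 18 h 4 rose in mRNA-seq (25.9% of all genes called as higher) and 5 in Ribo-seq (24.6%). Without the block the mRNA-seq counts were 0 after 1 h and 3 after 18 h, and the Ribo-seq counts stayed at 4 and 5. That fit called 1.98% of all genes in mRNA-seq and 25.1% in Ribo-seq after 18 h. After 1 h it called 0.0% in mRNA-seq, so the count of 0 there does not set these factors apart. Its share in Ribo-seq after 1 h is not given here. Hsf1, the heat shock factor, rose in Ribo-seq after 18 h by 1.33 ± 0.42 (adjusted p = 0.00856), and not with centred libraries (adjusted p = 0.0906). The treatment itself was visible in Hspa5, the Hsp70 of the endoplasmic reticulum, which rose in CPA18 by 1.83 ± 0.25 in mRNA-seq (adjusted p = 2.36e-09; 0.0951 without the block) and by 1.94 ± 0.15 in Ribo-seq (adjusted p = 1.77e-29).

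Over the 18 libraries, the profiles most like that of Lonp1 were those of Pycr1, an enzyme of proline synthesis in mitochondria (r = 0.978), Derl3, which serves degradation of proteins from the endoplasmic reticulum (0.959), and Yars, a tRNA synthetase (0.959). Among the other members Dnaja3 came closest to Lonp1 (r = 0.904, rank 52 of all genes) and Clpp next (0.658). The profiles most like that of Hspd1 were Psmc6 (0.98), a proteasome subunit, Hsp90b1 (0.976), the Hsp90 of the endoplasmic reticulum, and Srp54c (0.974). Its partner Hspe1 had an r of −0.704 with Hspd1 over the same libraries. These Pearson correlations of log2(RPKM + 0.5), centred on the median gene in each library, are descriptions. The 18 points fall into the 2 assays and share libraries and depth, and a constant difference between the assays, as between Hspd1 and Hspe1, weighs on r.

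**Figure D5:**
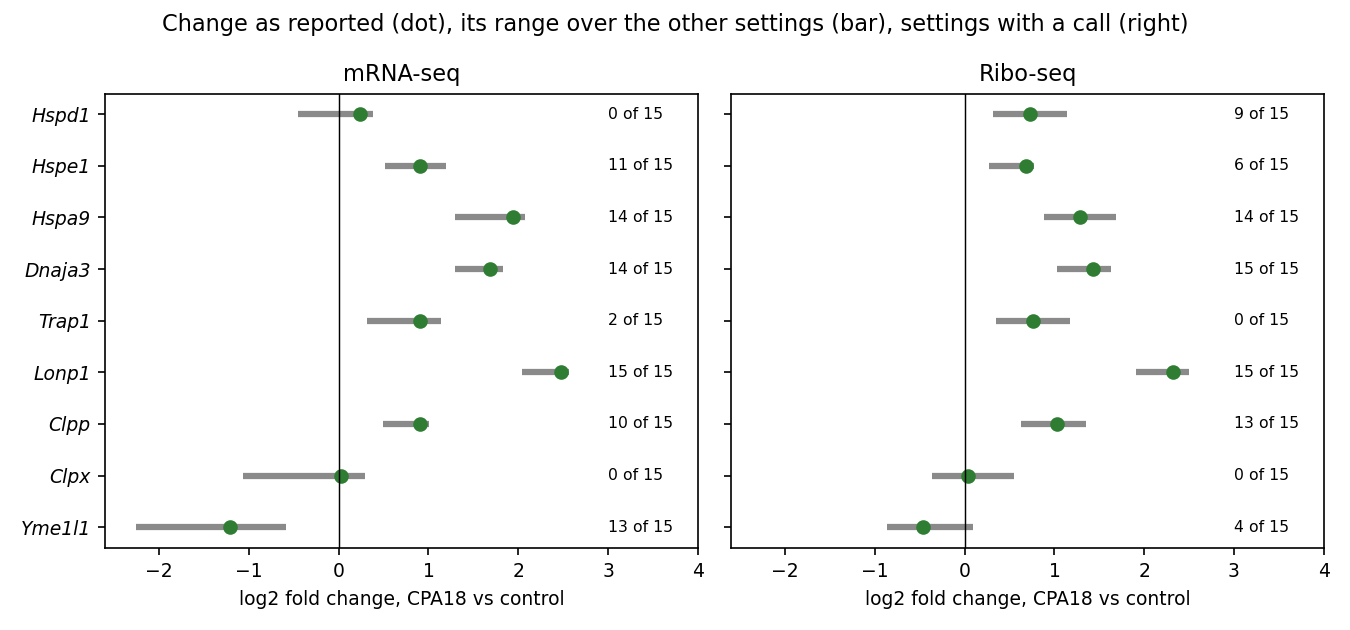
Log2 fold change between control and CPA18 as reported (dot) and its range over the 15 other settings of scaling, test, filter and samples (bar), in mRNA-seq (left) and Ribo-seq (right), with the number of those settings that called the gene. Lonp1 was called in 15 of 15 in both assays, Dnaja3 in 14 and 15, Hspa9 in 14 and 14, and Trap1 in 2 and none.

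The range of these settings sets the members apart. In mRNA-seq Lonp1 stayed between 2.04 and 2.57, Hspa9 between 1.30 and 2.08, and Dnaja3 between 1.29 and 1.83. In Ribo-seq the ranges were 1.91 to 2.50 for Lonp1, 0.88 to 1.69 for Hspa9 and 1.03 to 1.63 for Dnaja3. Hspe1 was called in 11 of 15 settings in mRNA-seq and in 6 in Ribo-seq, Clpp in 10 and 13, and Hspd1 in none and 9. Yme1l1 stayed below 0 in all 15 mRNA-seq settings, and in Ribo-seq in all but 1. Clpx changed sign in 10 mRNA-seq settings and was called in none.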

How the data were processed

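MIN6 cells were profiled by mRNA-seq and Ribo-seq, 9 libraries each, from 3 treatments in 3 experiments. The authors kept short reads that passed a quality filter, aligned them with Bowtie2 to mouse reference RNAs of GRCm38.p6, and deposited the read count, RPM and RPKM of each transcript. The Bowtie2 version and the use of strand in counting are not given in the sources used here. Aligning to a set of transcripts can place reads shared by transcripts or pseudogenes on any of them, and a few abundant RNAs enter every total. RPM values were not used.

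The deposited counts and RPKM of protein-coding transcripts (RefSeq names starting with NM) were summed per gene. Of 30741 transcripts, 30227 matched a RefSeq symbol with their version, 478 without it and 36 did not match, giving 17208 genes. The 7794 genes read in each of the 18 libraries were tested with edgeR 4.0.16 (quasi-likelihood, total count as library size, experiment as block) in R 4.3.3. Ribosome occupancy was the interaction of assay and treatment over 18 libraries, blocked by experiment within assay. Intervals are 95%, 1.96 standard errors either side. Each standard error was the size of the log2 change over the square root of its F statistic, which is unsteady for very small changes. For Clpx occupancy between control and CPA18 it was 0.71, and 1.59 with centred libraries. The experiments are named as batches in the labels. Libraries of the same experiment deviated together, with a mean r of 0.567 (0.113 to 0.757) over 9 pairs in mRNA-seq and of 0.139 (0.083 to 0.187) in Ribo-seq. The labels do not say more about what the experiments share.

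Other settings were TMM factors, totals without Ins1, Ins2 and Lars2, centring on the median gene (added after the data were seen), DESeq2 1.42.0, limma 3.58.1 on log2(RPKM + 0.5) or log2(RPKM + 1), no filter, edgeR's filterByExpr, only transcripts with a read in all libraries, no block, each experiment left out, and the experiment 2 controls left out or exchanged. The scripts were tested on simulated data, with changes set between control and CPA18. In mRNA-seq edgeR called 70 of 200 changed genes (median estimate 1.04, log2) and made 3 false calls. Many changes of this size were thus missed. In Ribo-seq it called 291 of 400, part of them with larger changes, and made 12 false calls. The 9 members and the gene lists were chosen with earlier results of these data known. Named were the members, for each other list up to 3 genes of smallest p in mRNA-seq and in Ribo-seq (CPA18 against control), Atf4, Atf5, Ddit3 and Hspa5, and the 3 genes most like Hspd1 and Lonp1. Stoml2, Phb and Hsf1 were named outside this rule, to complete short counts, after their values were seen.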

Additional observations from a re-analysis of the deposited data

How the results depend on the processing

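Over 15 other settings and 9 comparisons, 1140 of 1215 changes of the 9 genes kept their side of the threshold, 68 lost a call and 7 gained one. No change called in either fit reversed. Of the 1140, 128 that were called in neither fit changed sign. Between control and CPA18 in mRNA-seq, 7 members were called (33.6% of all genes), against 4 with DESeq2, 4 with both experiment 2 controls left out, and 4 to 6 when 1 experiment was left out (4 without experiment 3). The shares of all genes called in these other fits are not given here, so their counts do not set the members apart from other genes. Without the replicate block 1 member was called in mRNA-seq between control and CPA18 (1.98% of all genes). Between CPA1 and CPA18, 2 were called (1.77% of all genes) in place of 6 (37.5%). The block changed no call of a member in Ribo-seq or in ribosome occupancy. With the assays of the experiment 2 controls exchanged, 2 members (Lonp1 and Dnaja3) were called in Ribo-seq both between control and CPA18 and between CPA1 and CPA18, in place of 6. Between control and CPA18 that fit called 2.45% of all genes, in place of 30.9%. The cause was not tested. The calls of 0 members after 1 h and for ribosome occupancy were 0 in all settings. In these counts a gene to which DESeq2 gave no adjusted p stands as not called. Depth limits Clpx most (2 to 24 mRNA-seq reads a library), and the values of Yme1l1 (10 to 78) and Trap1 (8 to 177) also rest on few reads.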
